A study of Mus musculus with 37 samples.

Results

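Secreted antagonists of bone morphogenetic proteins (Bmps) and activins were followed across 9 components of the developing mouse kidney. The set was Sostdc1, Grem1, Nog, Chrd, Bmper, Vwc2, Crim1, Fst and Fstl1, chosen as a list of gene symbols: 9 of the 18193 genes that have a probe set for a single gene on the array. Together they have 14 probe sets, 1 or 2 a gene. Of the 9, 8 passed the filter on low values that 15709 genes passed, and Nog did not. All samples were wild-type CD-1 embryos, an outbred strain, with no treatment, and sex is given as unknown. At embryonic day E11.5 there were 8 arrays of metanephric mesenchyme and 4 of ureteric bud, and at E12.5 there were 5 of renal vesicle. At E15.5 there were 4 arrays of S-shaped body, 4 of renal corpuscle, 2 of proximal tubule, 3 of ureteric tip, 3 of medullary collecting duct and 4 of medullary interstitium. Each array carried 1 pool, described as roughly 50 sections cut from 5 kidneys, whose RNA went through 2 rounds of amplification, and the labels do not tie pools to litters, so p-values measure the spread between pools only. The sample descriptions state laser capture for every pool, whereas the titles of all 4 bud arrays and of 4 mesenchyme arrays name dissection or collagenase, those of 3 mesenchyme arrays name laser capture, and 1 names no method.

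Bmps and activins are secreted dimers that signal through paired serine/threonine kinase receptors to Smad proteins. Secreted antagonists bind these ligands outside the cell and keep them from the receptors, so where an antagonist is made shapes where the ligand can act. In the kidney, Bmp signalling restrains outgrowth of the ureteric bud and takes part in survival of nephron progenitors and in patterning of the stroma.

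Values are log2 signals, that is log2 of the deposited signal after adding an offset of 34.62, quantile normalized between arrays. A value of 7.89 is the median of all values and served as the filter level. A gene rose, fell or was called where limma gave an adjusted p under 0.05 together with a log2 difference of at least 1, with Benjamini-Hochberg adjustment over all genes tested. Levels are compared only within a probe set, never between genes. In these pools, fewer cells of a type and less RNA per cell cannot be told apart.

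The array medians of the deposited signal ran from 127 to 334, and for 29 of the 37 arrays the nearest other array came from the same component. S-shaped body replicate 3 and renal corpuscle replicate 4 stood apart by their markers. The mean log2 signal of the renal vesicle markers was 9.62 in that S-shaped body array, against 12.66, 13.24 and 13.03 in the other 3, and its podocyte markers were at 14.49 against 11.06 to 11.86. Its proximal tubule markers were at 13.13 against 9.44 to 9.95, and its interstitium markers at 13.27 against 10.18 to 10.65. The distal and loop markers were at 12.24 there, against 10.58 to 11.11. In renal corpuscle replicate 4 the renal vesicle markers were at 13.06, against 9.71 to 10.37 in the other 3, and the podocyte markers were at 11.23 against 13.97 to 15.02.

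Across the 9 components, 6 of the 8 antagonists tested differed (49.9% of all genes did), namely Sostdc1, Bmper, Vwc2, Fst, Fstl1 and Crim1. The members with wide ranges peaked in different places. Bmper and Fst were highest in the early mesenchyme, Vwc2 was high in the medullary interstitium, and Sostdc1 was high in most epithelia of E15.5, in the ureteric bud and in the interstitium but low in mesenchyme and renal vesicle. Sostdc1 had an adjusted p of 4.96e-10 and the rank 43 among all genes by F. The adjusted p was 4.49e-07 for Bmper, 1.06e-06 for Vwc2, 7.56e-05 for Fst, 0.00115 for Fstl1 and 0.0339 for Crim1. Grem1 (adjusted p 0.328) and Chrd (adjusted p 0.202) did not pass. The distance between the highest and the lowest component mean was 7.23 for Sostdc1, 5.68 for Bmper, 5.46 for Vwc2 and 4.09 for Fst, against a median of 1.79 over all genes.

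**Figure D1:**
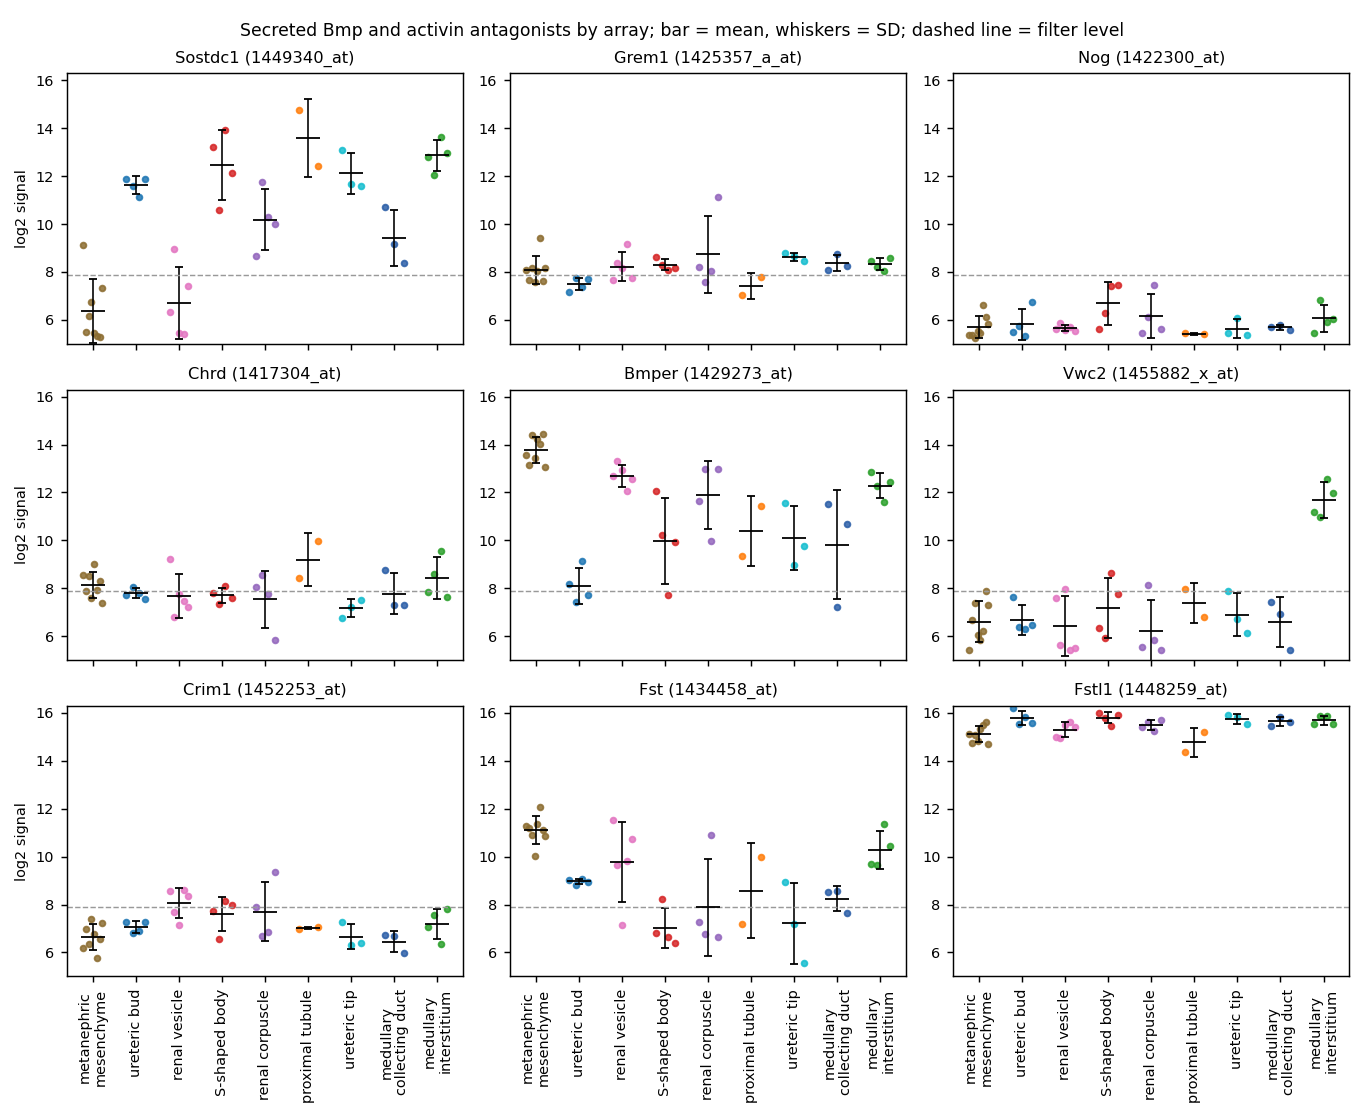
Log2 signal (y axis) of the 9 antagonists in each of the 37 arrays, by component (x axis), with the component mean as a bar, the SD as whiskers and the filter level of 7.89 as a dashed line. Sostdc1, Bmper, Vwc2 and Fst range widely between components, Fstl1 is high throughout, and all Nog points lie under the line.

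Sostdc1, the first of the cystine-knot antagonists here, is a secreted protein that binds Bmps and also modulates Wnt signalling through Lrp receptors. The probe set used gave log2 signals of 11.89, 11.61, 11.12 and 11.90 in the ureteric bud and of 5.27 to 9.13, with a median of 5.84, in the 8 arrays of mesenchyme. The groups did not overlap, and the bud mean of 11.63 ± 0.36 (SD, n = 4) stood over a mesenchyme mean of 6.36 ± 1.34 (SD, n = 8). Sostdc1 was thus higher in the bud by 5.27 on the log2 scale (38.6-fold, SE 0.70, adjusted p 1.28e-06). The 1 pair of arrays from both components whose titles share a date code, both titled collagenase, differed by 5.82. With only the 4 mesenchyme arrays titled dissection or collagenase the difference was 5.79, and with the 3 titled laser capture it was 4.29. The highest mesenchyme value, 9.13 in replicate 1, came from an array whose ureteric epithelium markers (8 of 9 measured) had a mean log2 signal of 11.20. Replicate 2, with those markers at 11.34, had Sostdc1 at 5.51. The part of such material in the level was not tested.

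In the renal vesicle Sostdc1 stayed near the level of the mesenchyme, at 6.31, 8.95, 5.45, 5.40 and 7.40. In the S-shaped body, the next stage of the nephron, it was at 13.23, 10.59, 13.93 and 12.12, above every vesicle array. The highest of these, 13.93, was in the S-shaped body array whose markers stood apart. The difference was 5.77 (54.4-fold, SE 0.76, adjusted p 6.15e-06). Without the 2 libraries whose markers stood apart it was 5.28 (adjusted p 0.000147). No date code is shared by vesicle and S-shaped arrays, so date and component cannot be told apart here. With the date as a random block the difference was 5.75 (adjusted p 1.42e-05). The correlation within dates was 0.0596, so that block could change the difference little. The vesicle minus mesenchyme difference was 0.34 (95% interval -0.98 to 1.66, adjusted p 0.781).

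At E15.5 the highest Sostdc1 mean was in the proximal tubule, whose 2 arrays had 14.75 and 12.43. The interstitium, the S-shaped body and the ureteric tip followed, the last with 13.11, 11.68 and 11.58 in its 3 arrays. The highest array of each of these lay above the lower tubule array. Against the mean of the other 5 components of E15.5 the tubule difference was 2.18, which was not called. The renal corpuscle (8.67, 11.77, 10.30 and 10.02) and the medullary collecting duct (10.70, 9.17 and 8.38) were lowest among the 6 components of that day. Ranges overlapped at all 8 steps of the order of the 9 components, and the step was larger than the SD of both neighbours at 2 of them, from bud to corpuscle and from collecting duct to vesicle. The collecting duct was below the mean of the other 5 components of E15.5 (difference -2.83, SE 0.72, adjusted p 0.0267), and it lost the call without collecting duct replicate 2 (-2.71, adjusted p 0.28) or replicate 3 (-2.32, adjusted p 0.298). Sostdc1 was the 1 antagonist called in that comparison, where 1.9% of genes were. The tip and duct arrays did not overlap, with a difference of 2.71 (SE 0.93, adjusted p 0.358). Tip minus duct values in the 2 pairs of arrays with a shared date code were 3.30 and 2.42.

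The interstitium gave Sostdc1 values of 12.82, 12.04, 13.62 and 12.98, all above the mesenchyme, with a difference of 6.51 (90.8-fold, SE 0.70, adjusted p 7.08e-08). No date code is shared by interstitium and mesenchyme arrays. With the date as a random block the difference was 6.53, but with a correlation within dates of 0.0596 that block could change it little. The collecting duct lay below the interstitium (difference -3.45, SE 0.87, adjusted p 0.0145), and the pair of arrays with a shared date code differed by -3.65. This call was lost without collecting duct replicate 2 (-3.33, adjusted p 0.106), collecting duct replicate 3 (-2.93, adjusted p 0.114) or interstitium replicate 3 (-3.20, adjusted p 0.0551). Epithelial markers varied among the interstitial arrays. The ureteric epithelium markers were at 12.89, 11.19, 10.00 and 9.89 in replicates 1 to 4, and the proximal tubule markers (7 of 7 measured) at 10.09, 9.73, 8.5 and 7.75. Sostdc1 was at 13.62 and 12.98 in the 2 arrays with the lowest levels of both lists. The distal and loop markers ran otherwise, at 8.268, 8.735, 10.49 and 8.832 in replicates 1 to 4. They were highest in replicate 3, where Sostdc1 was at 13.62. The part of epithelial material in the interstitial level was not tested.

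A second probe set of Sostdc1 placed the interstitium differently. It gave 7.26, 8.15, 9.58 and 8.85 there, sixth of the 9 components, and its collecting duct minus interstitium difference was -0.20 with overlapping groups. Interstitium minus mesenchyme was 2.39 on this set, also with overlapping groups. The proximal tubule led on both, at 11.36 and 11.31 here, with no overlap with the next component. Bud minus mesenchyme was 3.15 with no overlap, and S-shaped body minus vesicle was 2.24 with overlap. The low level of the collecting duct was weaker on this set. Tip minus duct was 0.66 and the duct against the other 5 components of E15.5 was -1.06, both with overlapping groups. Over the 37 arrays, which share components, the probe sets correlated at 0.801, and the low interstitial rank is not shared by the probe set used.

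Grem1 encodes gremlin, a cystine-knot antagonist of Bmps that is required for outgrowth of the ureteric bud. It stayed close to the filter level everywhere, with component means from 7.41 (proximal tubule) to 8.73 (renal corpuscle) and overlapping ranges at every step of the order. It was called in none of the 16 comparisons between components. The corpuscle mean rested on replicate 4, at 11.12, against 8.21, 7.57 and 8.03 in the other 3 arrays, and this is the corpuscle library with vesicle markers. The ureteric tip (8.79, 8.67 and 8.46) lay above every array of ureteric bud (7.18, 7.73, 7.37 and 7.71), with a difference of 1.14 (SE 0.54, adjusted p 0.239). Without quantile normalization that difference was 2.12 (adjusted p 0.0128), and the median of all genes shifted by 0.387 between these scalings. With array weights it was 1.10 (adjusted p 0.00123).

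Nog encodes noggin, which binds Bmps with high affinity. Its single probe set was under the filter level in all 37 arrays, from 5.26 to 7.47, from deposited signals of 2.03 to 169.5. The higher values were 7.42 and 7.45 in the S-shaped body and 7.47 in the renal corpuscle. As the gene did not pass the filter it has no test here.

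Chrd encodes chordin, which binds Bmps through cysteine-rich repeats and is cleaved by tolloid proteases. Component means ran from 7.17 in the ureteric tip to 9.19 in the proximal tubule, and ranges overlapped at all 8 steps. The 2 tubule arrays were at 8.41 and 9.98, above the 4 S-shaped body arrays (7.78, 7.34, 8.11 and 7.59), with a difference of 1.49 (SE 0.65, adjusted p 0.141). Against the mean of the other 5 components the tubule difference was 1.47 (adjusted p 0.0684). No antagonist was called in that comparison, where 15.2% of genes were. By limma 4 of the 8 antagonists had an unadjusted p under 0.05, a cut for which no share of all genes is given.

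Bmper, a secreted protein with repeats of the chordin type, binds Bmps and can limit or enhance their signals. Its promoter is shown as it belongs to the gene with the widest range among the antagonists whose start is in the RefSeq table used (6 of 9). The 250 bases before the start on GRCm38.p6 lie at chr9:23222826-23223075 on the plus strand. Capitals mark GGAGCC or its complement GGCTCC, a GC-rich element of the kind that Smad proteins of the Bmp pathway bind, which was found 3 times.
Bmper: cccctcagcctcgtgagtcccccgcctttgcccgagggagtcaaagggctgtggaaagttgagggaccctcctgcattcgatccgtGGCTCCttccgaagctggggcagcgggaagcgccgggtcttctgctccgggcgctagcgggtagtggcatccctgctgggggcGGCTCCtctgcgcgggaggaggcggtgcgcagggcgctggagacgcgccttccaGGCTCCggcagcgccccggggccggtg
On either strand, 26% of the 32851 promoter windows of that length hold GGAGCC at least 1 time, a share not matched for GC content. Among the other antagonists, the windows of Chrd, Fstl1 and Crim1 hold it 1 time each. The element GGCGCC, found in 9.59% of windows, and the shorter Smad element CAGAC, found in 42.2%, had no match in the Bmper window.

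Bmper was highest in the metanephric mesenchyme, at 13.08 to 14.43 with a median of 13.80. In the ureteric bud it was at 8.19, 7.41, 9.13 and 7.70, near the filter level, and the groups were far apart. The bud mean was lower (51.2-fold; difference -5.68, SE 0.65, adjusted p 1.12e-07). With the 3 mesenchyme arrays titled as laser capture the difference was -5.69, and with the 4 titled dissection or collagenase it was -5.83. The pair with a shared date code differed by -4.89. Interstitium markers (8 of 8 measured) moved with it, at 11.95 to 13 in the mesenchyme and 7.51 to 8.89 in the bud. So did other lists, among them the nephron progenitor markers (10.87 to 12 and 7.62 to 8.47) and the mural markers (10.61 to 12.58 and 7.73 to 8.14). The ureteric epithelium markers went the other way (8.03 to 11.34 and 13.45 to 14.17). The part of any list in the difference was not tested.

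The renal vesicle kept Bmper at 12.68, 13.31, 12.92, 12.07 and 12.55 (vesicle minus mesenchyme -1.08, adjusted p 0.248). In the S-shaped body the values were 12.07, 10.20, 7.70 and 9.93, each below every vesicle array, replicate 1 by less than 0.01. Bmper thus fell (difference -2.73, SE 0.72, adjusted p 0.0211). The lowest value, 7.70, was in replicate 3, whose markers stood apart, and without that array the difference was -1.97 (adjusted p 0.148). The renal corpuscle had 11.66, 12.97, 9.99 and 12.96, with a corpuscle minus S-shaped body difference of 1.92 (SE 0.76, adjusted p 0.246).

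In the ureteric lineage of E15.5 Bmper spread widely between arrays and moved with several marker lists, the interstitium list among them. The collecting duct had 11.54, 7.24 and 10.67, in arrays whose interstitium markers were at 12.21, 10.56 and 11.56. The ureteric tip had 11.58, 8.97 and 9.76, with those markers at 12.72, 10.26 and 11.18. In both components the order of the 3 arrays was the same for Bmper and for the markers, as it was for the 2 proximal tubule arrays. The podocyte markers (duct 10.81, 8.68 and 10.39, tip 9.12, 7.83 and 9.05) had that order in duct and tip too. So had the endothelial and macrophage markers, and the other lists did not have it in both. Bmper and the interstitium markers did not share an order in the S-shaped body. There replicate 3 had the highest interstitium markers (13.27 against 10.18 to 10.65) and the lowest Bmper (7.70). In the interstitium the orders also differed, with markers at 14.07, 13.61, 13.95 and 14.01 and Bmper at 12.84, 12.29, 11.60 and 12.43. The part of the material behind any of these marker lists in the Bmper level was not tested. The tip minus bud difference was 2.00 (adjusted p 0.166; 95% interval 0.34 to 3.65) and that of duct minus bud was 1.71 (adjusted p 0.189). Without collecting duct replicate 2 the latter was 3.00 (adjusted p 0.0209).

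The interstitium held Bmper at 12.84, 12.29, 11.60 and 12.43. Against the mean of the other 5 components of E15.5 it was 1.85 higher (SE 0.60, adjusted p 0.055), short of the threshold. It was called in 4 of 14 alternatives. Among them were the higher offset (1.73, adjusted p 0.0418), the stricter filter (1.85, adjusted p 0.0447) and the fit without the 2 libraries that stood apart (1.77, adjusted p 0.0384). Leaving out any 1 of 7 arrays of other components also gave the call, with adjusted p of 0.0269 (without S-shaped body replicate 1) to 0.049 (without collecting duct replicate 3). It was below every mesenchyme array, with a difference of -1.50 (SE 0.65, adjusted p 0.125). Collecting duct minus interstitium was -2.47 (adjusted p 0.0786), with no overlap. It was called in 3 of 14 alternatives, among them without the 2 libraries that stood apart (-2.47, adjusted p 0.0391) and with array weights (-2.44, adjusted p 0.026). Of 37 arrays left out in turn, 2 gave the call, S-shaped body replicate 3 (-2.47, adjusted p 0.0456) and collecting duct replicate 1 (-3.33, adjusted p 0.0201). Over these 37 fits the smallest difference was -1.18, and the highest adjusted p was 0.699.

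Vwc2, a secreted Bmp antagonist with von Willebrand factor C domains, was high in the medullary interstitium alone among the 9 components. Its promoter window on GRCm38.p6, chr11:11113766-11114015 on the plus strand, is shown for that reason. Capitals mark GTCTG, the complement of CAGAC, its 1 match among the 3 elements searched.
Vwc2: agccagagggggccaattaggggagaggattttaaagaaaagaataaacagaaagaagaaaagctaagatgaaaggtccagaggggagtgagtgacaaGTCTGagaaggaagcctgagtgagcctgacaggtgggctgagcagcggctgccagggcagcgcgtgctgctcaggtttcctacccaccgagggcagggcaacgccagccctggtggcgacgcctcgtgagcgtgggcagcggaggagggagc
GC content was 58.8% in this window and 71.6% in that of Bmper, against a median of 52.4% over all windows. The windows of both genes are from RefSeq, and the matches describe letters, not binding.

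The interstitium had Vwc2 at 11.20, 10.98, 12.58 and 11.98 on the probe set used, from deposited signals of 2358, 1940, 5823 and 3796. In the other 33 arrays it was between 5.41 and 8.65, so that no array of another component came near. Component means outside the interstitium were 6.23 to 7.38, all under the filter level. Interstitium minus mesenchyme was 5.08 (33.9-fold, SE 0.59, adjusted p 2.67e-07). Against the mean of the other 5 components of E15.5 the interstitium was higher by 4.83 (SE 0.54, adjusted p 5.84e-07). Collecting duct minus interstitium was -5.09 (SE 0.74, adjusted p 3.35e-05), and -4.28 in the pair with a shared date code. With the date as a fixed term, which leaves out the 12 arrays with no date code, interstitium minus mesenchyme was 5.85 (adjusted p 0.112). In that fit the collecting duct difference was -4.23 (adjusted p 0.0449).

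Vwc2 rested on that 1 probe set. Its suffix, _x_at, marks probe sets whose probes may also match other transcripts. The other probe set was under the filter level in all 37 arrays, from 5.28 to 6.86, and its mean in the interstitium was 5.89. The interstitial arrays gave 5.94, 6.86, 5.43 and 5.34 there, so the pattern was seen on 1 probe set of 2. The 8 interstitium markers, Foxd1, Col1a1 and Dcn among them, had a mean log2 signal of 13.61 to 14.07 in these 4 arrays, above the mesenchyme's 11.95 to 13, where Vwc2 was between 5.41 and 7.90.

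Crim1, a membrane-anchored protein with cysteine-rich repeats that binds Bmps, had low values. On the probe set used, the renal vesicle was at 8.56, 7.71, 7.13, 8.61 and 8.34 and the mesenchyme at 5.76 to 7.39, with a median of 6.67. The groups overlapped through vesicle replicate 3. The rise was 1.42 (2.68-fold, SE 0.39, adjusted p 0.0115), and it was not called against the 3 mesenchyme arrays titled as laser capture (1.44, adjusted p 0.135). Its other probe set spread from 5.27 to 10.57 within the vesicle, with a difference of 1.51. Over the 37 arrays the probe sets correlated at 0.0887. The highest Crim1 value of all, 9.37, was in renal corpuscle replicate 4, the library with vesicle markers.

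**Figure D2:**
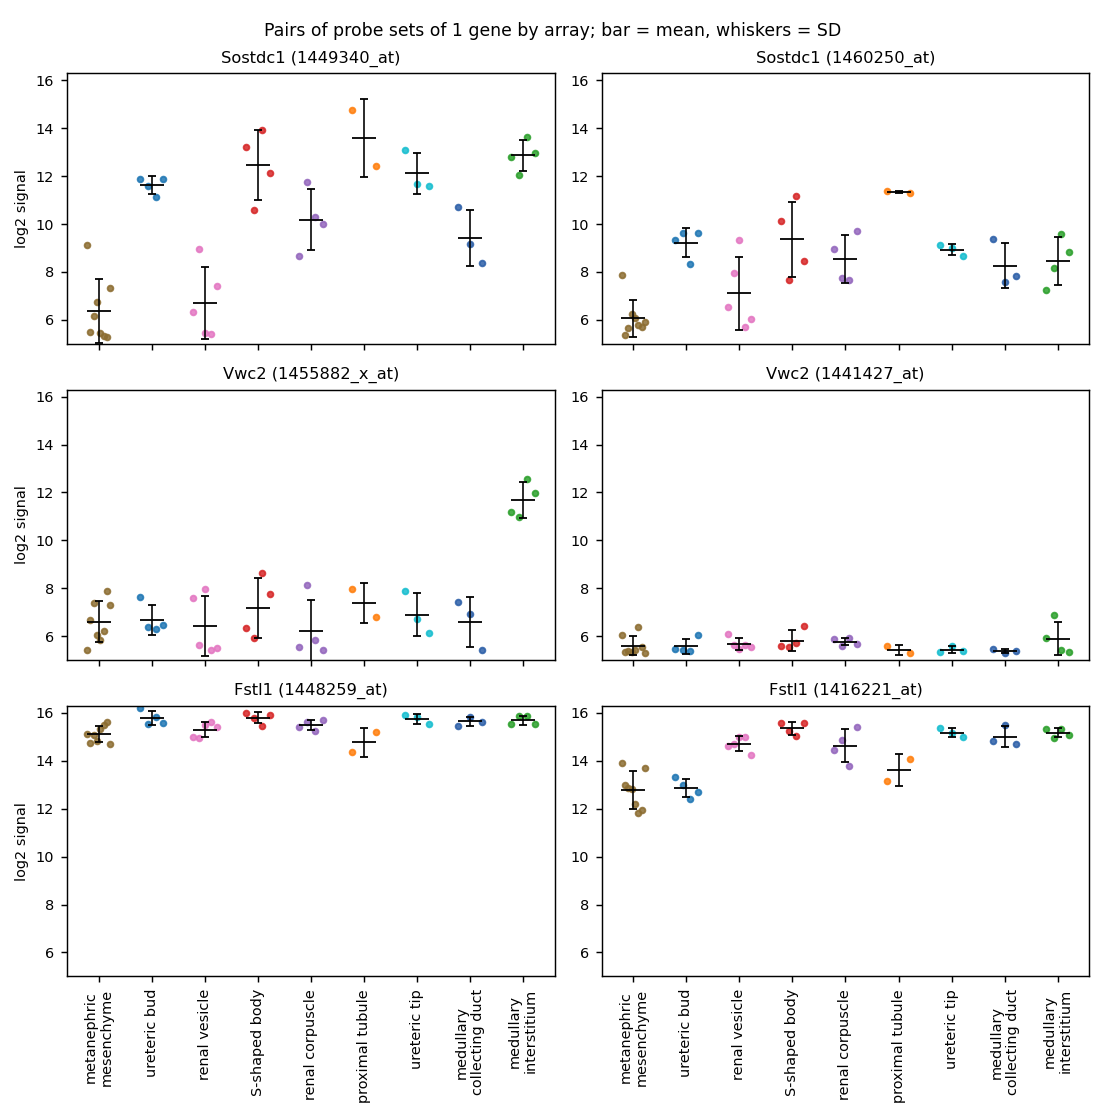
Log2 signal (y axis) by array and component (x axis) for both probe sets of Sostdc1, Vwc2 and Fstl1, with mean bars and SD whiskers. The second Sostdc1 set ranks the interstitium sixth, the second Vwc2 set goes no higher than 6.86, and the second Fstl1 set is lower at E11.5 than in the vesicle.

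Fst encodes follistatin, which binds activins and, less tightly, Bmps. The mesenchyme had Fst at 10.01 to 12.08, with a median of 11.15, and the ureteric bud at 9.01, 8.81, 9.08 and 8.95. The groups did not overlap and the bud was lower (4.41-fold; difference -2.14, SE 0.69, adjusted p 0.0441). That call lay near the threshold. It was lost without any 1 of the 4 bud arrays (adjusted p 0.091 to 0.119), without 7 of the 8 mesenchyme arrays in turn (adjusted p 0.053 to 0.0805), and without ureteric tip replicate 2 (adjusted p 0.0503). Against the 3 mesenchyme arrays titled laser capture the difference was -1.78 (adjusted p 0.413), and against the 4 titled dissection or collagenase it was -2.39 (adjusted p 0.0845). Within the shared date code the pair differed by -3.00.

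Fst then varied in the vesicle, at 11.52, 9.66, 7.13, 9.84 and 10.74, and was lowest in the S-shaped body, at 6.81, 8.21, 6.65 and 6.38. This fall (6.79-fold; difference -2.76, SE 0.75, adjusted p 0.0255) had overlapping groups through vesicle replicate 3, and was not called without the 2 libraries that stood apart (-2.64, adjusted p 0.0688). It was also lost without vesicle replicate 1 (-2.33) or 5 (-2.52), or without S-shaped body replicate 1 (-2.70), 3 (-2.64, adjusted p 0.0847) or 4 (-2.55). Interstitial Fst was at 9.69, 9.65, 11.37 and 10.43, higher than the mean of the other 5 components by 2.50 (5.64-fold, SE 0.63, adjusted p 0.0113). The groups overlapped through corpuscle replicate 3 (10.90) and tubule replicate 2 (9.97). Without interstitium replicate 3 that difference was 2.14 (adjusted p 0.0977), and without replicate 4 it was 2.45 (adjusted p 0.0512).

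The renal corpuscle had Fst at 7.26, 6.78, 10.90 and 6.62. Replicate 3 was also the highest corpuscle array on the second Fst probe set, at 12.28 against 7.36 to 8.78. On that set bud minus mesenchyme was -1.83 and S-shaped body minus vesicle was -2.38, both with no overlap. Against the other 5 components of E15.5 the interstitium was higher by 1.59 and the corpuscle by 2.09 there, both with overlap. The second set differed in the corpuscle, which ranked second of the 9 components there and seventh on the set used. Corpuscle minus S-shaped body was 2.65 with no overlap, against 0.88 with overlap on the set used (adjusted p 0.687). The proximal tubule, at a mean of 6.15, was lowest on the second set. The sets correlated at 0.621 over the 37 arrays.

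Fstl1, a secreted follistatin-like glycoprotein that binds Bmps, was strongly expressed in every array, at 14.36 to 16.20, or deposited signals of 26010 to 82050. Its component means spanned 1.01, and only 12% of genes had a shorter distance. The 2 proximal tubule arrays, at 14.36 and 15.21, lay below the 4 S-shaped body arrays, at 15.98, 15.80, 15.47 and 15.93. The difference was -1.01 (2.02-fold lower, SE 0.25, adjusted p 0.00633), which just passed the size threshold. Without tubule replicate 1 it was -0.58 (adjusted p 0.273), without quantile normalization -0.44 (adjusted p 0.354), and in the pair with a shared date code -0.59. On the second probe set it was -1.74, with no overlap. It was under 1 in size without S-shaped body replicate 1 (-0.95) or 4 (-0.97).

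On its second probe set Fstl1 was lowest in the components of E11.5. There the mesenchyme was at 11.81 to 13.93, with a median of 12.84, and the bud at 13.33, 12.98, 12.43 and 12.70. The vesicle was at 14.24 to 15.02 in its 5 arrays, above both. Among the components of E15.5, the proximal tubule (13.16 and 14.08) overlapped the mesenchyme and the bud, and the lowest corpuscle array, at 13.77, overlapped the mesenchyme. Interstitium minus mesenchyme was 2.39 on this set (adjusted p 3.89e-07 when it stands for the gene) and 0.59 on the set used (adjusted p 0.0219). Tip minus bud was 2.32 on it, with no overlap, and -0.03 on the set used. The array's annotation ties both sets to the same sequence record, and they correlated at 0.391 over the 37 arrays.

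**Figure D3:**
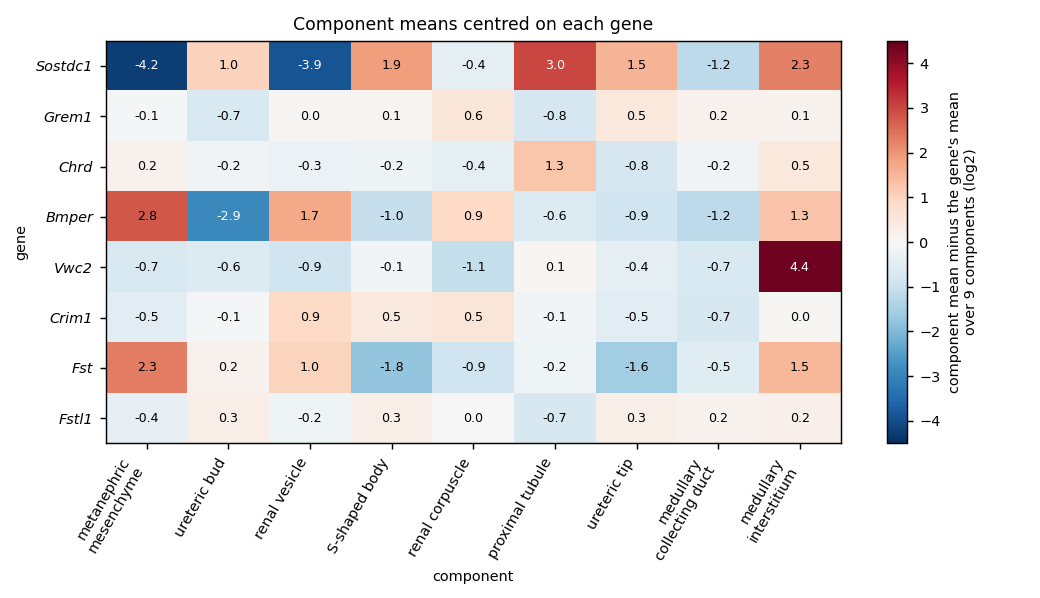
Component means (columns) of the 8 antagonists tested (rows), each minus the gene's mean over the 9 components on the log2 scale; red is above and blue below that mean. Bmper and Fst are above their mean in the mesenchyme where Sostdc1 is below it, and Vwc2 is far above its mean only in the medullary interstitium.

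From mesenchyme to bud, 3 of the 8 antagonists were called (8.15% of all genes were), and Sostdc1 rose while Bmper and Fst fell. From mesenchyme to vesicle only Crim1 was called (11.9% of genes). From vesicle to S-shaped body 3 were called (4.99% of genes) and Sostdc1 again rose while Bmper and Fst fell. From S-shaped body to corpuscle none was called (0.579% of genes), and from S-shaped body to proximal tubule Fstl1 was (9.91% of genes). In the former 2 of the 8 had an unadjusted p under 0.05 by limma, a cut for which no share of all genes is given. Interstitium against mesenchyme gave 2 calls (11.48% of genes), both upward, Sostdc1 and Vwc2. Collecting duct against interstitium gave 2 (4.46% of genes), both downward, of the same genes. These 2 comparisons share the interstitium arrays. On the second probe set of Sostdc1 the differences were 2.39 and -0.20, both with overlapping groups. The second set of Vwc2 was under the filter level in all 37 arrays.

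Along the ureteric epithelium no antagonist was called. This holds for tip against collecting duct (0.356% of genes called), tip against bud (4.25%) and collecting duct against bud (10.2%). At an unadjusted p under 0.05, limma gave 1 of the 8 in the first, 3 in the second and 2 in the third. No share of all genes at that looser cut is given, so these counts cannot be set against the shares called. With array weights the calls were 1, 3 and 2. The calls of all genes rose with them, from 56, 667 and 1603 to 1014, 3673 and 4198. Against the other 5 components of E15.5, the interstitium had 2 calls, Vwc2 and Fst (6.11% of genes). The S-shaped body (1.46%), the renal corpuscle (5.4%) and the ureteric tip (1.6%) had none. They had 1, 3 and 0 of the 8 at an unadjusted p under 0.05 by limma, again with no share of all genes at that cut.

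**Figure D4:**
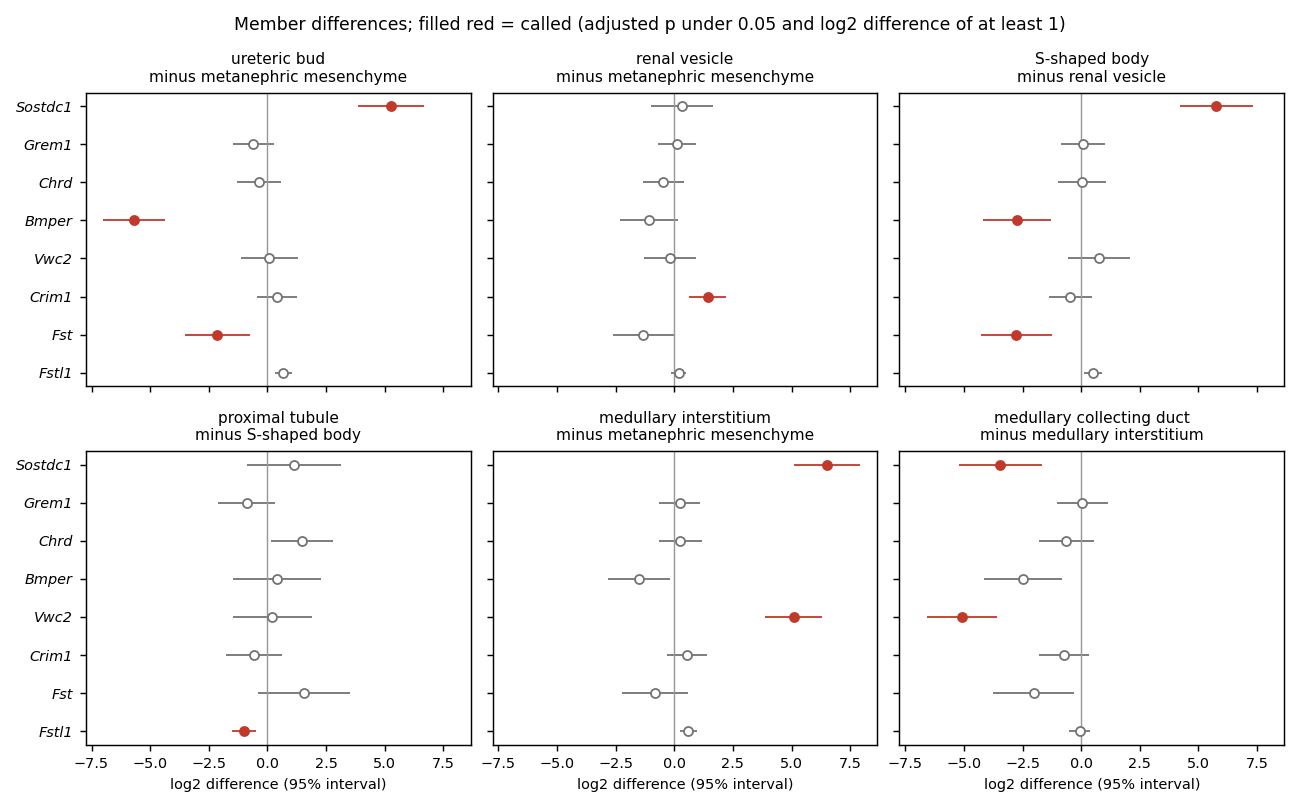
Log2 differences of the 8 antagonists tested (rows) in 6 comparisons (panels), with 95% intervals; filled red points were called and open grey ones were not. Sostdc1 lies right of 0 and Bmper and Fst left of 0 both from mesenchyme to bud and from vesicle to S-shaped body, and Vwc2 stands out in both panels with the interstitium.

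How the antagonists varied together is given as a description over the 9 component means, which share their arrays. Fst and Bmper correlated at 0.649, Sostdc1 and Bmper at -0.604, and Sostdc1 and Fst at -0.528. Over the 37 arrays these were 0.491, -0.577 and -0.486. Grem1 and Chrd correlated at -0.683 and Vwc2 with Bmper at 0.179. Among 6186 genes with a span of at least 2, the 3 whose component means were most like Vwc2 were Sema3a (0.959), Galnt16 (0.949) and Thbs2 (0.939). For Bmper they were Ntrk2 (0.947), Cacna2d1 (0.936) and Fat4 (0.906), for Fst they were Runx1t1 (0.909), Tril (0.902) and Mmp2 (0.898), and for Sostdc1 they were Mgll (0.929), Gnai1 (0.882) and Emx1 (0.870).

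Genes of the same pathway are given as counts beside the share of all genes called. Of 17 ligand genes measured, 2 fell from mesenchyme to bud (8.15% of all genes were called), Bmp2 (-3.25, adjusted p 0.000104) and Bmp4 (-2.92, adjusted p 1.39e-05), and none rose, with a list median of -0.02 against 0.02 over all genes. From mesenchyme to vesicle 3 of the 17 were called (11.9% of all genes). Bmp2 rose by 4.03, Bmp4 rose by 1.21 and Bmp5 fell by 2.52, with a list median of -0.20 against -0.06 over all genes. From vesicle to S-shaped body Bmp2 fell by 3.01, the 1 ligand called of 17 (4.99% of all genes). In the interstitium 2 of the 17 were called (6.11% of all genes). Bmp5 was higher than in the other 5 components of E15.5 by 3.78 (adjusted p 0.000151) and Gdf2 was lower (-1.32), with a list median of -0.47 against 0.01 over all genes.

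Of 14 receptor and co-receptor genes, 1 rose and 1 fell from mesenchyme to bud (8.15% of all genes were called), Bmpr1b, a type I Bmp receptor, by 2.14 (adjusted p 0.0105) and Acvrl1 (difference -2.05). From vesicle to S-shaped body 3 of the 14 were called (4.99% of all genes). Bmpr1b fell by 3.24, Tgfbr3 rose by 1.95 and Eng rose by 1.42. Of the 6 Smad genes, 3 fell from mesenchyme to vesicle, Smad1 by 2.33, Smad2 by 1.58 and Smad3 by 1.15, with a list median of -0.84 against -0.06 over all genes. In that comparison 11.9% of genes were called, 1254 downward and 608 upward. Of 11 feedback and target genes, 2 fell from mesenchyme to bud, Id2 by 1.73 and Hey1 by 2.02 (8.15% of all genes were called). In the proximal tubule 3 of the 11 were below the mean of the other 5 components, Id1 (-2.75), Id4 (-1.74) and Id3 (-1.63), where 15.2% of all genes were called. Of 18 other extracellular modulators, 2 were higher in the proximal tubule than in the other 5 components, Vwc2l, a relative of Vwc2, by 3.93 (adjusted p 4.52e-07) and Dand5 by 2.07 (adjusted p 0.0259).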

How the data were processed

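RNA from 37 pools was measured on 1 Affymetrix mouse array each, with 45101 probe sets. The deposited intensity values are linear signals made by the authors with the GCOS software, per the submitters' processing notes; from the values, each column was scaled to a 2% trimmed mean of 1500.0. The method of collection, the sections pooled and the amplification are as the labels' protocols give them.

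Here 34.62, the 20th percentile of the pooled values, was added, log2 taken and arrays quantile normalized, which assumes like distributions in all components. Probe sets above the median in at least 2 arrays were kept, and the one with the highest mean stood for a gene. Genes came from the platform annotation, which names 1 gene for 34945 probe sets, several for 932 and none for 9160 beside 64 controls; probe sets with several or none were not used. Of those with 1 gene, 34741 matched the RefSeq gene list.

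One limma fit (version 3.58.1, R 4.3.3) with a mean per component over all 37 arrays gave an F test and 16 comparisons, 10 between 2 components and 6 of a component of E15.5 against the mean of the other 5. The fit was checked on simulated data. The number of arrays a component, 2 to 8, limits precision. Alternatives were the offset, scaling, filter, choice of probe set, array weights, components fitted, title date, title number, mesenchyme method, minimum size and arrays left out. Same-numbered arrays did not deviate together (median correlation 0.00688 over 99 pairs), so numbers were not taken as pairs. The antagonists were described by their highest probe set, with the other where it disagreed, and up to 3 of the largest called differences a direction were named per pathway list. Both the antagonists and the lists were chosen with earlier results of these data known. Promoter windows are the 250 bases before the start in the RefSeq table.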

Additional observations from a re-analysis of the deposited data

Results flagged for a closer look

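Of 54 groups of 4 to 10 arrays tested by Dixon's criterion, 4 had a single array apart from the rest, where chance gives about 1 in 20. Grem1 was at 9.42 in metanephric mesenchyme replicate 6, against 7.58 to 8.18 in the other 7 arrays. Fst was at 10.90 in renal corpuscle replicate 3, against 6.62 to 7.26. Vwc2 was at 7.62 in ureteric bud replicate 1, against 6.28 to 6.47, and at 8.14 in renal corpuscle replicate 2, against 5.41 to 5.83. Of these, only the Fst value was far above the filter level.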

How the results depend on the processing

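The 15 called differences gave 214 values under alternatives other than leaving out 1 array. Of these 176 remained called, 38 did not and 0 turned. With 1 array left out, 527 of 555 remained called and 0 turned. Values that turned were never called, and all came from the fit with date codes as a fixed term, on 25 arrays: Bmper in tip minus bud (-1.91) and duct minus bud (-1.90), Sostdc1 in duct minus bud (0.47), Fstl1 in interstitium minus mesenchyme (-0.86) and Fst in the S-shaped body against the other 5 (0.015). No value of that fit exists for the vesicle, which shares no date. The cause was not tested.

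Counts of antagonists called that changed by more than 1.5 times were these. With the date as a fixed term, 0 were called in bud minus mesenchyme, tubule minus S-shaped body and the duct against the other 5, and 1 in interstitium minus mesenchyme, duct minus interstitium and the interstitium against the other 5. Fitting only the components compared gave 2 in vesicle minus mesenchyme, where 2114 of all genes were called, against 1862 in the main fit. It gave 1 in S-shaped body minus vesicle (120 against 784) and 0 in tubule minus S-shaped body (156 against 1557). There were 2 in tip minus bud (2951 against 667) and 1 in duct minus bud (3755 against 1603). The interstitium against the other 5 had 1 (509 against 960). A minimum size in the test itself (treat) gave 0 in vesicle minus mesenchyme, where 123 of all genes were called, against 1862. It gave 0 in tubule minus S-shaped body (296 against 1557) and the duct against the other 5 (45 against 299). S-shaped body minus vesicle (63 against 784) and duct minus interstitium (78 against 701) had 1 each. The interstitium against the other 5 also had 1 (69 against 960). Array weights gave 0 in tubule minus S-shaped body (511 of all genes, against 1557) and 1 in tip minus duct (1014 against 56). With them 3 were called in tip minus bud (3673 against 667) and 2 in duct minus bud (4198 against 1603). Duct minus interstitium had 4 (1453 against 701) and the tip against the other 5 had 1 (2088 against 252). Without quantile normalization there were 0 in tubule minus S-shaped body (1658 against 1557) and the duct against the other 5 (265 against 299). There were 2 in tip minus bud (899 against 667) and duct minus bud (1903 against 1603), where the median of all genes shifted by 0.387 and 0.402.

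The higher offset gave 0 in vesicle minus mesenchyme, 1 in duct minus bud, and 2 in the corpuscle and in the tubule against the other 5. The lower offset gave 1 in duct minus interstitium and 0 in the duct against the other 5. Mesenchyme titled laser capture gave 0 in vesicle minus mesenchyme, where 389 of all genes were called, against 1862 in the main fit. The stricter filter also gave 0 there. It left 5 antagonists and removed Crim1, the 1 gene called, before the test. The probe set of largest variance gave 1 in tip minus bud (1328 of all genes, against 667) and duct minus bud (2133 against 1603). It also gave 1 in the tubule against the other 5 (2812 against 2391). Without _x_at and _s_at probe sets, which drops Vwc2, 1 was called in interstitium minus mesenchyme, duct minus interstitium and the interstitium against the other 5. Without both libraries that stood apart 1 was called in S-shaped body minus vesicle (407 of all genes, against 784). With the date as a random block 1 was called in the corpuscle against the other 5. With the title number as a replicate block, without 3 unnumbered arrays, 0 were called in the duct against the other 5 (Sostdc1 -2.50, adjusted p 0.0705), and Fst in bud minus mesenchyme was -1.92 (adjusted p 0.0654). That block added calls of Bmper in the interstitium against the other 5 (2.39, adjusted p 0.015) and in duct minus interstitium (-2.64, adjusted p 0.0383).

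Among smaller changes, bud minus mesenchyme went from 3 calls to 2, losing Fst, with the lower offset (adjusted p 0.0813), no filter (0.0518), the probe set of largest variance (0.0517), either mesenchyme method alone (0.0845 and 0.413), the replicate block and treat (0.882). S-shaped body minus vesicle lost Bmper with array weights (adjusted p 0.0506). The F test gave 5 to 8 calls over the alternatives.

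Leaving out 1 array gave 5 to 6 calls in the F test, 2 to 3 in bud minus mesenchyme, 1 to 3 in S-shaped body minus vesicle, in duct minus interstitium and in the interstitium against the other 5, 0 to 1 in tubule minus S-shaped body, duct minus bud and the duct against the other 5, and 0 to 2 in the corpuscle and the tubule against the other 5. The remaining comparisons kept their counts.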
